A study of Mus musculus with 19 samples.

Results

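The cytosolic ribosomal protein genes encode the proteins that, together with ribosomal RNA, build the small and large subunits of the ribosome outside mitochondria. Members were taken from the gene count table by symbol: Rpsa, Rplp0 to Rplp2, and every Rpl or Rps symbol followed by a number, without the Rps6k kinases and without rows marked as pseudogenes by "-ps". This rule found 93 of 55416 gene rows, 55 named for the large subunit and 38 for the small. Of these, 77 were canonical subunits (46 large, 31 small), and the other 16 were paralogs, retrotransposed copies or genes that the pattern only matched by name.

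RNA was measured by poly(A)-selected sequencing of mouse liver in 19 libraries. All mice were of the C57BL/6 strain, either wild type (WT) or IL-6 -/- (KO), the latter lacking the cytokine interleukin 6. Injected mice received 2 intraperitoneal doses, 3 h apart, each either vehicle or 4 mg of the loop diuretic furosemide, and liver was collected 6 h after the first dose. Furosemide was given to produce pre-renal azotemia (PRA), the build-up of nitrogenous waste in blood when the kidneys are underperfused. There were 4 libraries of non-injected normal mice, 4 of WT after vehicle, 4 of WT with PRA, 4 of KO after vehicle and 3 of KO with PRA. Age, sex, and how the Il6 gene was disrupted are not given in the labels, which also do not state whether replicates are different mice; p-values speak only to the variation among these libraries, which may be technical.

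Ribosomal proteins are needed in near-equal amounts, and their mRNAs are among the most abundant in liver, a tissue that secretes large quantities of plasma protein. Most of these mRNAs begin with a C followed by a run of pyrimidines, the terminal oligopyrimidine tract, through which mTORC1 signalling and the RNA-binding protein Larp1 control how much of each mRNA is translated and how stable it is. The abundance of the mRNA and its translation are therefore separate layers of control.

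RefSeq promoter entries (build GRCm38.p6, whereas the counts were made on GRCm39) were found for 57 of the 77 canonical members and 11 of the 16 others. A C followed by at least 4 C or T stood at the annotated start in 13 of the 57 (22.8%), against 3.01% of the 27025 genes in the table. Within 5 bases of the start it was found in 27 members (47.4%) and in 21.2% of all genes. These are matches of letters in a window and not mapped start sites. The following windows hold 15 bases before the start and 15 from the start on, with the pyrimidine run in capitals. Rps6, Rplp2, Rps10 and Rps27 are shown for the run, and Rpl24, Rpl41, Rpl22l1 and Rpl7l1 because their values are singled out below. No run was found in the windows of Rpl24, Rpl41 and Rpl7l1.
Rps6 (chr4:86857353-86857382, minus strand): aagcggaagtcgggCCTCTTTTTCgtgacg
Rplp2 (chr7:141447636-141447665, plus strand): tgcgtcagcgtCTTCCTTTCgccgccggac
Rps10 (chr17:27635230-27635259, minus strand): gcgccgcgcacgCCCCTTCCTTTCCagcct
Rps27 (chr3:90213634-90213663, minus strand): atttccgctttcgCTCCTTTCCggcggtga
Rpl22l1 (chr3:28805493-28805522, plus strand): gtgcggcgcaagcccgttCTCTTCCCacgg
Rpl24 (chr16:55966260-55966289, plus strand): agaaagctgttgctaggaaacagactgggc
Rpl41 (chr10:128549154-128549183, minus strand): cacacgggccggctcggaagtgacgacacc
Rpl7l1 (chr17:46782642-46782671, minus strand): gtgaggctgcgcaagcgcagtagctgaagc

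A second short sequence, CCGGAAG or its reverse complement CTTCCGG, the core recognised by Ets-family factors, was searched on both strands from 250 bases before to 50 after the start. It was present in 24 of the 57 canonical members (42.1%) and in 9.93% of all genes in the table. This sequence was chosen after the windows were seen, and its reverse complement can overlap a pyrimidine run. The 100 bases before the start of Rps6, which has both features, and of Rpl41, which has this one but no run, are shown with the match in capitals.
Rps6 (chr4:86857368-86857467, minus strand): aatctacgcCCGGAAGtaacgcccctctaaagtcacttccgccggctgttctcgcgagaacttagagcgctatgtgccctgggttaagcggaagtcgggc
Rpl41 (chr10:128549169-128549268, minus strand): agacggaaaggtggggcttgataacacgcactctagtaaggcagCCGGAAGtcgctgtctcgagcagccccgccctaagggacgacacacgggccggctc

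Libraries held 32073865 to 74041441 reads counted in genes, of which the members took 1.23% to 1.74%. Reads that could not be placed uniquely were 14.07% to 19.15% of a library and were not counted, which touches this family because its processed pseudogenes share sequence with the mRNAs. Their mean share was 14.75% in normal, 15.85% in WT vehicle, 17.57% in WT PRA, 16.57% in KO vehicle and 15.97% in KO PRA libraries. The part of this share in the level of the family was not tested. The 300 rows with a "-ps" symbol summed to only 32.2 to 48.1 CPM when scaled by library totals alone. All other CPM given here are read counts scaled to the effective size of each library. The 12 hepatocyte markers, among them Alb, Apoa1 and Ttr, were all present and summed to 90066 to 173145 CPM. Of the 93 members, 89 passed the filter on low counts among 15570 genes tested. All 77 canonical members passed, and the 4 that did not were Rpl10l, Rpl39l, Rpl3l and Rps12l1. Rpl10l had no count in any library, Rpl39l and Rps12l1 had at most 3 and 1 counts in a library, and Rpl3l had 1 to 8.

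Within a library the canonical transcripts kept almost fixed proportions, while their common level differed from library to library. Summed over the 46 large subunit members, the TMM-scaled level was 9361, 8634, 7633 and 8312 CPM in the 4 normal libraries. It was 6424, 8020, 9492 and 7828 CPM in WT vehicle livers, and 8907, 9011, 9219 and 9394 CPM in WT PRA livers. WT PRA libraries thus lay close together, whereas the WT vehicle libraries spanned a range that enclosed all of them. In KO livers the large subunit sum was 8429, 7200, 9194 and 8033 CPM after vehicle and 9286, 10507 and 7720 CPM with PRA. The KO PRA group held the highest of all 19 sums, and its lowest library fell inside the KO vehicle range.

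The 31 small subunit members followed the same order of libraries within each group. Their sum was 6121, 5551, 4989 and 5441 CPM in normal livers, 4121, 5216, 6228 and 5024 in WT vehicle and 5764, 5880, 6003 and 6110 in WT PRA. It was 5500, 4617, 6023 and 5276 CPM in KO vehicle and 6061, 6907 and 5017 in KO PRA. The ratio of the large to the small subunit sum stayed between 1.52 and 1.56 in all 19 libraries, although the combined sum varied 1.49-fold among the 4 WT vehicle libraries. The fold range of the combined sum within the other groups was 1.23 in normal, 1.06 in WT PRA, 1.29 in KO vehicle and 1.37 in KO PRA.

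**Figure D1:**
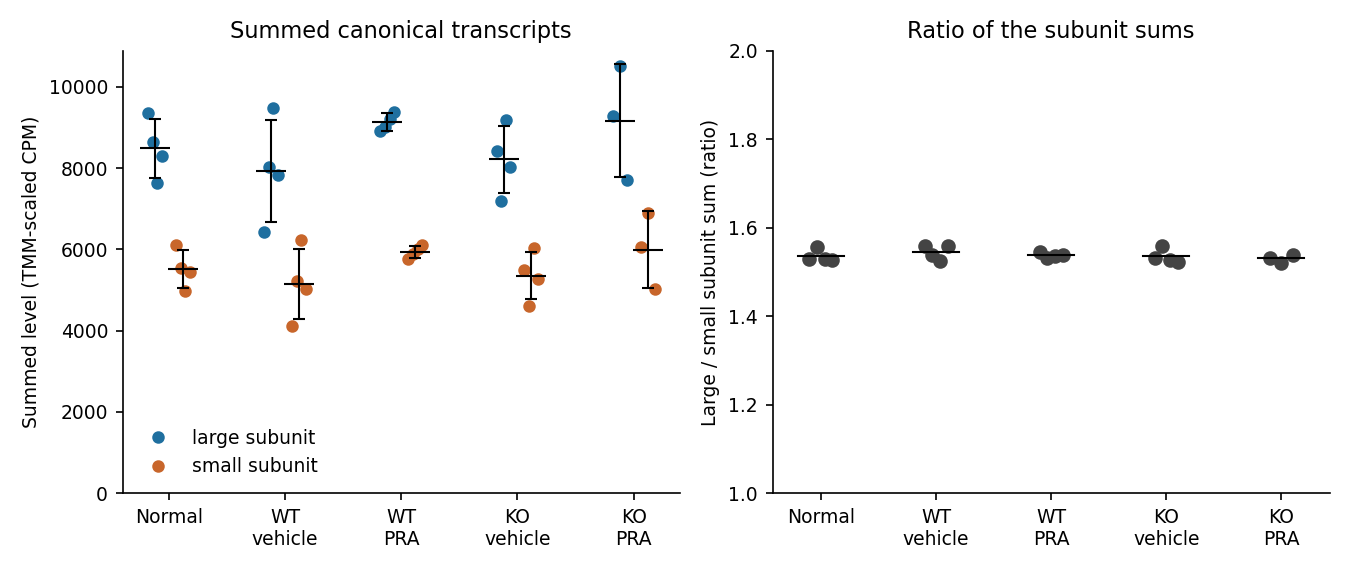
Left, summed TMM-scaled CPM of the 46 large and 31 small canonical members in each library (points), with the group mean and SD (n = 4, and 3 for KO PRA). Right, the ratio of the large to the small sum per library on an axis from 1 to 2, with the group mean as a line. WT PRA libraries sit at 8907 to 9394 CPM for the large subunit, inside the WT vehicle range of 6424 to 9492, and every ratio lies between 1.52 and 1.56.

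Depth moved with this common level in part of the groups. The deepest library had the lowest sum in the normal, WT vehicle and KO vehicle groups, with 69740746, 74041441 and 59392063 gene counts, but not in either PRA group. The part of depth in the level was not tested.

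Each canonical member tracked the median canonical member across the 19 libraries. Pearson correlations of log2 CPM with that median ranged from 0.82 to 0.99, with a median of 0.96, and 72 of 77 were above 0.9. These values share library and scaling, and each member is part of the median, so they are a description. The within-group SD of a canonical member was 0.17 on the log2 scale (median of 77), and it was 0.05 once the median member of the same library was subtracted. For the 4990 genes outside the family whose mean CPM was at least that of the lowest canonical member, the same SDs were 0.15 and 0.23.

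**Figure D2:**
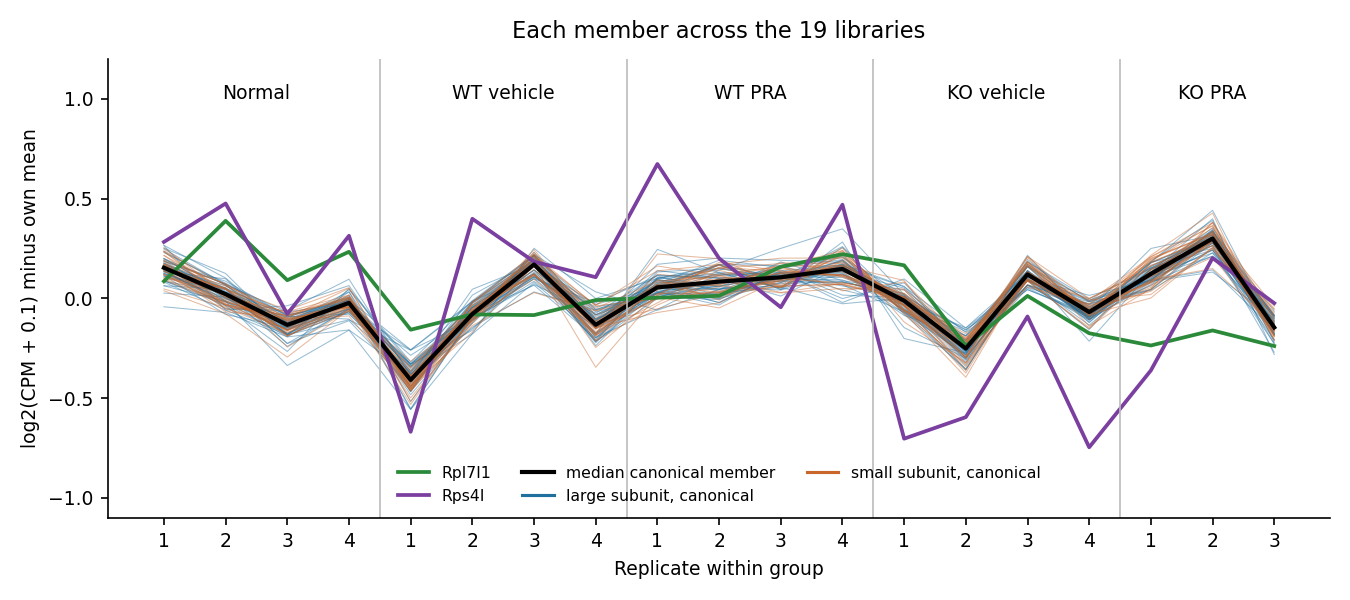
Lines give log2(CPM + 0.1) of each canonical member minus its own mean over the 19 libraries, with the median canonical member in black and Rpl7l1 and Rps4l drawn for contrast; the horizontal axis is the replicate within each group and has no order. The 77 canonical lines move up and down together, whereas Rpl7l1 and Rps4l leave the band.

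Levels differed widely between members when set on a per-length scale. Mean CPM per kb of transcript ranged 32.2-fold, from 26.3 for Rpl24 to 848 for Rplp1, with a median of 215. The next highest were Rps2 at 539 and Rpl41 at 455 CPM per kb. Reads matching several places were left out of the counts and Rps20 is annotated with a transcript of 3706 bases, so low values do not measure low mRNA alone.

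The first comparison asks how PRA changed these transcripts in WT liver. On the TMM scale all 77 canonical members had a positive log2 fold change against vehicle, with a median of 0.19 (a fold of 1.14) and a range of 0.07 to 0.34, but with library totals alone the median was -0.10 and only 2 were positive. The median of all 15570 genes was -0.03 under TMM and -0.33 under library totals, so the family lay above it under both. By edgeR's quasi-likelihood test, 1 of 77 canonical members was called higher and 0 lower (adjusted p at or under 0.05), where 9.74% of all genes were called higher, 12.3% lower and 22.1% in either direction. At an unadjusted p under 0.05 there were 17 of 77, where 34.5% of all genes were. The summed level differed by a log2 of 0.22 for both the large and the small subunit, about as much as the SD between WT vehicle libraries (0.23 and 0.24), and was -0.08 for each with library totals. In bulk tissue, fewer cells of a type and less RNA per cell cannot be told apart.

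Marker lists of several cell types differed in the same comparison, in both directions. Hepatocyte markers (12 of 12 tested) summed to 90880 to 118812 CPM in WT vehicle and 131348 to 137162 CPM in WT PRA, and 4 were called higher with a median log2 fold change of 0.25, but the median was -0.04 and 2 were called higher with library totals. Erythroid markers (5 of 8 tested) summed to 139 to 152 against 167 to 211 CPM, and neutrophil markers (8 of 11 tested) to 1.65 to 3.76 against 12.97 to 14.7 CPM. Of these, 4 erythroid and 7 neutrophil markers were called higher, and 3 and 7 with library totals. Endothelial markers (12 of 12 tested) summed to 373.7 to 535 CPM in WT vehicle and 325 to 382 CPM in WT PRA, with 8 called lower and 1 higher and a median of -0.40. Stellate cell markers had 4 of 10 called lower (median -0.41), and B and plasma cell markers had 4 of 11 lower and 1 higher (median -0.96), with summed levels that overlapped. Called higher were also 3 of 10 monocyte, 1 of 11 Kupffer cell and 2 of 7 tested cholangiocyte markers, with 1 of the last lower, and none of 11 tested T and NK cell markers was called. Of all genes, 9.74% were called higher and 12.3% lower under TMM, and 4.24% and 40.9% with library totals. With library totals 8 endothelial, 6 stellate, 7 B and plasma, 1 monocyte, 1 cholangiocyte and 2 T and NK cell markers were lower. Higher were then 1 endothelial, 1 B and plasma, 3 monocyte and 2 cholangiocyte markers, and no Kupffer cell marker. No marker in these lists was at 0 in all libraries, and their part in the level of the family was not tested.

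Rpl24, a large subunit protein that helps bridge the 2 subunits, was the called member. Its level was 13.6, 15.6, 18.7 and 15.6 CPM in WT vehicle and 21.0, 19.4, 18.3 and 21.5 CPM in WT PRA. One vehicle library (18.7) lay above the lowest PRA library (18.3), and otherwise the groups were apart. Its log2 fold change was 0.34 ± 0.11 (SE), adjusted p = 0.0331 by edgeR, with library totals it was 0.05, and the call was lost when any of 6 of the 8 libraries was left out. Normal livers held 21.3, 17.0, 17.2 and 18.5 CPM of Rpl24, within the PRA range for 2 libraries.

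The stalk proteins Rplp0, Rplp1 and Rplp2, which recruit elongation factors to the ribosome, did not pass in WT liver. Rplp0 was at 311, 364, 441 and 348 CPM in WT vehicle and 443, 448, 433 and 452 CPM in WT PRA, where a single vehicle library reached the PRA range. Its log2 fold change was 0.28 ± 0.11 (adjusted p = 0.0637, edgeR). Rplp1 was at 284, 369.7, 497 and 418 CPM against 448, 461, 497 and 532 CPM, a log2 fold change of 0.31 ± 0.14 (adjusted p = 0.129). Rplp2 had a log2 fold change of 0.24 ± 0.13 (adjusted p = 0.206).

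Rpl5 and Rpl11 form a complex with 5S rRNA and, when free of ribosomes, bind the p53 regulator Mdm2. Rpl5 was at 179, 206, 233 and 215 CPM in WT vehicle and 236, 223, 234 and 233 CPM in WT PRA. Rpl11 was at 157, 204, 238 and 191 CPM against 215, 205, 231 and 212 CPM, with its highest value in a vehicle library. Neither passed, with log2 fold changes of 0.15 ± 0.11 and 0.12 ± 0.11. Rpl3, which lies near the peptidyl transferase centre, had the smallest fold change of the canonical members, 0.07 ± 0.14 on the log2 scale.

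No small subunit member was called. Rps6, the substrate of the S6 kinases, was at 164, 203, 238 and 201 CPM in WT vehicle and 229, 224, 229 and 230.2 CPM in WT PRA. Vehicle replicate 3 exceeded every PRA library, and the log2 fold change was 0.18 ± 0.11 (adjusted p = 0.243, edgeR). Rps14 was at 87.9, 108, 124 and 100.5 CPM against 132, 130.3, 118 and 129.6 CPM, a log2 fold change of 0.28 ± 0.11 (adjusted p = 0.0829). Rps19, whose loss of function causes Diamond-Blackfan anaemia, had a log2 fold change of 0.17 ± 0.12 (adjusted p = 0.364). Rpsa, also known as the laminin receptor, had 0.25 ± 0.13 (adjusted p = 0.174), and Rps27a, made as a fusion with ubiquitin, had 0.18 ± 0.11 (adjusted p = 0.292).

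In 2 canonical members the WT PRA and vehicle libraries did not overlap, against 11.1% of all genes with PRA libraries higher. They were Rps10 and Rpl18, named after their values were seen. Rps10 was at 27.5, 34.5, 38.8 and 36.4 CPM in vehicle and 39.1, 42.7, 39.5 and 44.9 CPM in PRA, with a log2 fold change of 0.28 ± 0.11 (adjusted p = 0.0695, edgeR). Rpl18 was at 95.4, 118, 133 and 120.3 against 137, 136, 135 and 142 CPM, with 0.24 ± 0.10 (adjusted p = 0.108).

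WT vehicle replicate 3 held the highest and replicate 1 the lowest vehicle value in all 77 canonical members. Without replicate 3, 23 canonical members were called higher by edgeR (9.62% of all genes were then called higher), with a median log2 fold change of 0.29. Without replicate 1 the median was 0.11 and no canonical member was called. The direction of the median was positive under TMM in both fits.

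The same comparison in KO liver asks whether PRA acted on these transcripts without IL-6. All 77 canonical members again had a positive log2 fold change on the TMM scale, with a median of 0.15 and a range of 0.07 to 0.25, but the median was -0.06 with library totals. None was called by edgeR, and none had an unadjusted p under 0.05, while 16.3% of all genes were called and 29.5% had such a p. The DESeq2 fit also called none. The summed level differed by a log2 of 0.15 for the large and 0.16 for the small subunit, less than the SD of KO PRA libraries (0.22 and 0.23), and by -0.05 for each with library totals. The median was 0.04 without KO PRA replicate 2 and 0.26 without replicate 3. Hepatocyte markers summed to 116426 to 122358 CPM in KO vehicle and 134710 to 173145 CPM in KO PRA. Of these 12, 5 were called higher with a median log2 fold change of 0.32, but 2 with a median of 0.11 with library totals. B and plasma cell markers summed to 104.7 to 122.8 CPM in KO vehicle and 51.4 to 73.4 CPM in KO PRA. Of these 11, 8 were called lower and 1 higher under both scalings, with a median log2 fold change of -1.41 under TMM. Of 12 endothelial markers 4 were called lower and 1 higher, and 7 and 1 with library totals. Neutrophil markers had 3 of 8 tested called higher, and 2 with library totals. Called lower were 2 of 10 monocyte, 2 of 10 stellate, 1 of 11 tested T and NK and 1 of 7 tested cholangiocyte markers. With library totals these were 4, 4, 2 and 1. None of 5 tested erythroid and 11 Kupffer cell markers was called under either scaling. Of all genes, 7.96% were called higher and 8.38% lower under TMM, and 3.78% and 20.7% with library totals. The part of these cell types in the level of the family was not tested.

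Rpl12, with the largest canonical difference in KO liver, had a log2 fold change of 0.25 (adjusted p = 0.232, edgeR). Rplp0 was at 421, 359, 416 and 384 CPM in KO vehicle and 457, 496 and 377 CPM in KO PRA, with 0.17 ± 0.11. Rps6 was at 218, 194, 234 and 219 CPM against 245, 271 and 201 CPM, with 0.14 ± 0.12. In both genes KO PRA replicate 2 was the highest library and replicate 3 lay among the vehicle values. Rpl24, called in WT liver, was at 15.4, 14.6, 19.01 and 17.9 CPM in KO vehicle and 18.8, 19.5 and 15.8 CPM in KO PRA, with 0.11 ± 0.12 (adjusted p = 0.571).

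The difference between the KO and the WT response was tested directly as an interaction. It called 0 of 77 canonical members (0.475% of all genes were called), and none had an unadjusted p under 0.05 (8.94% of all genes had). The median interaction was -0.05 on the log2 scale, and it ranged from -0.16 to 0.07 when single libraries were left out and was 0.03 with library totals. The Rpl24 interaction was -0.23 ± 0.16 (adjusted p = 0.777), so its response was not shown to differ between genotypes.

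KO and WT livers were also compared directly. With PRA, no canonical member was called (3.8% of all genes were), the median log2 difference was 0.01, and 43 of 77 were higher in KO. After vehicle, none was called either (0.0706% of all genes were), with a median of 0.05 and 71 of 77 higher in KO. Neither comparison had a canonical member with an unadjusted p under 0.05, as 16.3% of all genes had with PRA and 5.99% after vehicle. In both the sign of the median turned when single libraries were left out (-0.10 to 0.11 with PRA, -0.04 to 0.15 after vehicle). With PRA, 2 members were higher in KO without KO PRA replicate 2 and 74 without replicate 3. After vehicle, 13 were higher in KO without WT vehicle replicate 1 and 31 without KO vehicle replicate 3.

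**Figure D3:**
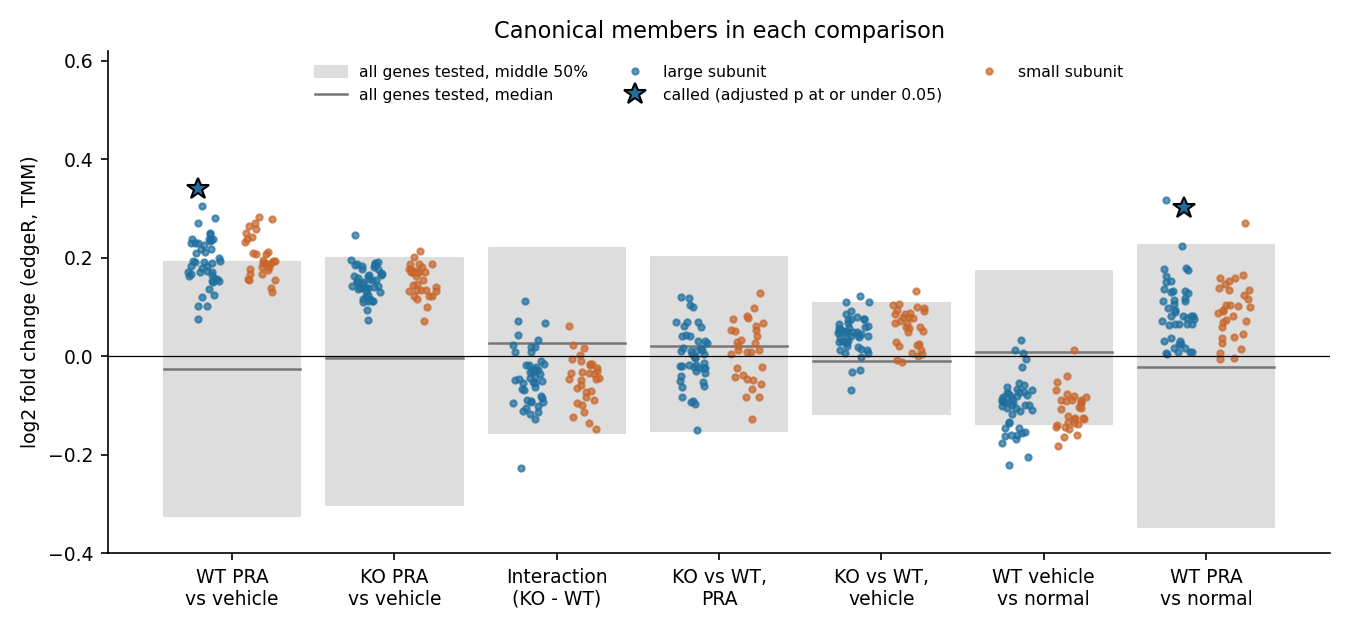
Points are edgeR log2 fold changes of the 77 canonical members in 7 comparisons, TMM-scaled, with large and small subunits side by side; stars mark called members, and the grey box and line give the middle 50% and the median of the 15570 genes tested. The 2 stars are Rpl24 (0.34, WT PRA against vehicle) and Rpl41 (0.30, WT PRA against normal). Medians for PRA against vehicle are 0.19 in WT and 0.15 in KO and turn to -0.10 and -0.06 when libraries are scaled by their totals alone.

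Injection itself was examined by setting WT vehicle livers against non-injected normal livers. The canonical median was -0.10 on the log2 scale, 73 of 77 members were lower after vehicle, and 0 were called by edgeR, where 2% of all genes were called. None had an unadjusted p under 0.05, as 15.2% of all genes had. The median kept its sign in all the fits that left out 1 library (-0.19 to -0.02), and the summed levels overlapped.

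WT PRA livers were then set against normal livers. The canonical median was 0.09, with 75 of 77 positive on the TMM scale, but it was -0.29 with library totals, when 61 were called lower (51.3% of all genes were) and the median of all genes was -0.40. Leaving out normal replicate 1 took the TMM median to 0.14, leaving out normal replicate 3 took it to 0.05, and the other single libraries kept it between them. Under TMM 1 canonical member was called higher and 0 lower, while 13.5% of all genes were called higher, 14.9% lower and 28.4% in either direction. The members took 1.60% ± 0.11 (SD, n = 4) of gene counts in normal livers, 1.40% ± 0.16 (n = 4) in WT vehicle and 1.32% ± 0.05 (n = 4) in WT PRA. TMM factors were 0.85 to 0.89 in WT PRA and 1.11 to 1.15 in normal libraries.

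The called member was Rpl41, the shortest ribosomal protein. It was at 223, 219, 201 and 206 CPM in normal livers and 259, 265, 263 and 261 CPM in WT PRA, and the groups did not overlap (16.7% of all genes were higher without overlap). The log2 fold change was 0.30 ± 0.11 (adjusted p = 0.0446, edgeR), it was -0.08 with library totals, and the call was lost when any of the 8 libraries was left out. Relative to the median member of the same library, Rpl41 was higher in WT PRA than in normal by a log2 of 0.22. This uses the same values as the call and is no separate evidence. In WT vehicle it was at 177, 218, 264 and 210.2 CPM, a range that enclosed all normal libraries.

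Rpl22l1, a paralog of Rpl22 that can take its place in the ribosome, was called in the same comparison and was the only other member that was. It was at 18.2, 14.2, 10.7 and 12.95 CPM in normal livers and 17.0, 19.9, 19.2 and 22.4 CPM in WT PRA, where 1 normal library (18.2) reached the PRA range. The log2 fold change was 0.49 ± 0.18 (adjusted p = 0.0471, edgeR), 0.12 with library totals, and the call was lost when any of 6 of the 8 libraries was left out. With libraries scaled to the summed canonical members it was 0.39 ± 0.12 (adjusted p = 0.0299), and over all alternatives the adjusted p ranged from 0.014 to 0.573. Canonical Rpl22 was at 99.6, 86.9, 86.3 and 96.3 CPM in normal and 93.6, 91.1, 96.8 and 95.5 CPM in WT PRA, a log2 fold change of 0.03 ± 0.10. WT vehicle livers held 14.7, 14.7, 20.8 and 14.9 CPM of Rpl22l1, and KO livers 15.2, 12.1, 19.03 and 14.3 CPM after vehicle and 17.8, 21.9 and 12.6 CPM with PRA.

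With libraries scaled to the summed canonical members, none of the 77 was called in any of the 7 comparisons. Under this scaling a member is measured against its own family.

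Rpl7l1, a relative of Rpl7 found in nucleoli, followed the family least among members with a mean of at least 10 CPM. Its correlation with the median member was 0.22 over the 19 libraries, whereas that of Rpl24, the lowest canonical one, was 0.82. It was at 54.7, 67.5, 54.9 and 60.6 CPM in normal, 46.2, 48.7, 48.6 and 51.2 in WT vehicle and 51.7, 52.0, 57.5 and 60.1 CPM in WT PRA. In KO livers it was at 57.8, 43.7, 52.0 and 45.7 CPM after vehicle and 43.7, 46.1 and 43.7 CPM with PRA. Every KO PRA library lay below every WT PRA library, as for 7.26% of all genes, with a log2 difference of -0.31 ± 0.10 (adjusted p = 0.0843, edgeR, which did not pass). The interaction of -0.35 ± 0.13 did not pass either (adjusted p = 0.396). Canonical Rpl7 had an interaction of -0.03 ± 0.15.

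Rps4l, a paralog of the X-linked Rps4x, varied more than the canonical members, with a within-group SD of 0.33 on the log2 scale. It was at 29.9, 34.2, 23.3 and 30.6 CPM in normal, 15.4, 32.5, 28.0 and 26.5 in WT vehicle and 39.3, 28.3, 23.8 and 34.1 CPM in WT PRA. KO vehicle livers held 15.1, 16.2, 23.1 and 14.6 CPM and KO PRA livers 19.1, 28.3 and 24.2 CPM. After vehicle the KO minus WT difference was -0.57 ± 0.21, and it did not pass (adjusted p = 0.697, edgeR). Rps4x differed by 0.03 ± 0.12 in that comparison.

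Rps27l, a paralog of Rps27 that is known as a p53 target, was at 51.4, 66.0, 64.7 and 60.6 CPM in WT vehicle and 64.2, 64.9, 63.5 and 67.8 CPM in WT PRA. Its log2 fold change was 0.10 ± 0.09 (adjusted p = 0.431, edgeR), beside 0.19 ± 0.11 for Rps27, and -0.19 with library totals. Rpl36al was at 37.2, 41.3, 51.9 and 42.1 against 56.0, 50.3, 51.5 and 46.8 CPM, with 0.25 ± 0.10 (adjusted p = 0.0995). Rps19bp1, which encodes a protein that binds Rps19 and is no ribosomal subunit, had 0.15 ± 0.13. Rpl37rt, a retrotransposed copy of low level, was at 1.19, 1.17, 1.63 and 1.05 against 1.44, 1.69, 2.17 and 1.77 CPM, with 0.49 ± 0.18 (adjusted p = 0.054). The remaining tested copies, Rpl32l, Rpl6l, Rps27rt, Rps3a2 and Rps3a3, were at or under about 2.3 CPM in all libraries and none was called. Reads of near-identical copies may have been split between them or dropped.

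**Figure D4:**
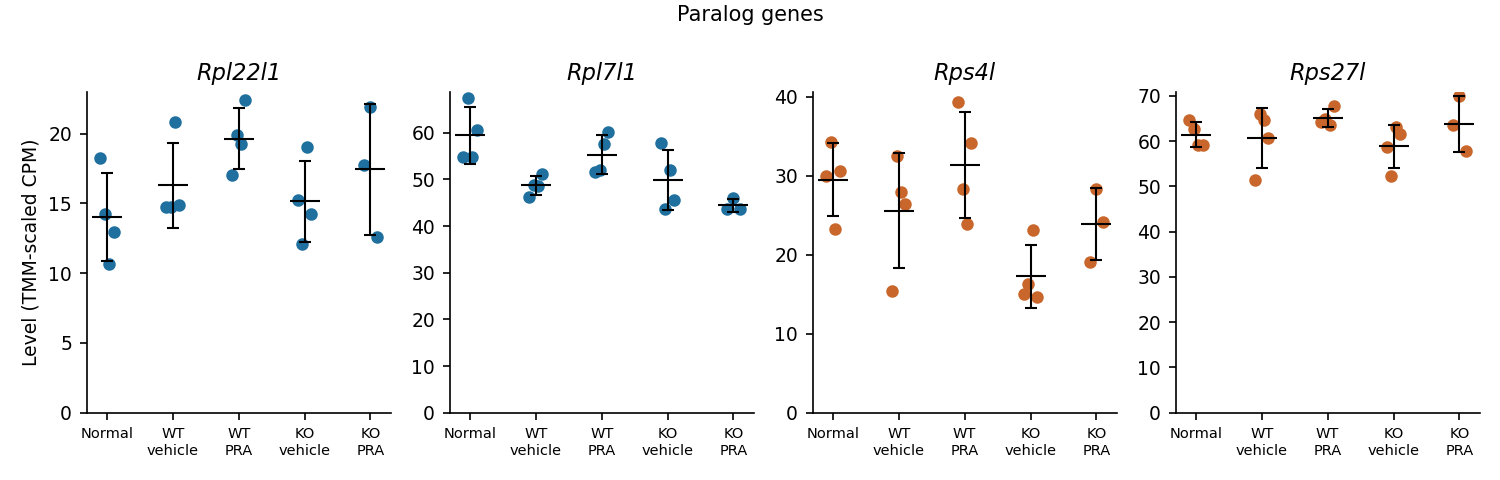
TMM-scaled CPM of 4 paralog genes in each library (points), with group mean and SD (n = 4, and 3 for KO PRA). Rpl22l1 spans 10.7 to 18.2 CPM in normal and 17.0 to 22.4 in WT PRA livers, Rpl7l1 is at 43.7 to 46.1 in KO PRA and 51.7 to 60.1 in WT PRA livers, and Rps27l overlaps between PRA and vehicle in both genotypes.

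Genes that act with the ribosomal proteins were counted in the same fits. Fau and Rack1, ribosomal components whose symbols the naming pattern does not match, had log2 fold changes of 0.24 ± 0.14 and 0.24 ± 0.11 in WT PRA against vehicle and of 0.20 ± 0.15 and 0.18 ± 0.12 in KO, but of -0.05 each in WT and -0.01 and -0.03 in KO with library totals. Neither was called by edgeR. Among 37 translation factors, 5 were called higher in WT PRA (9.74% of all genes were) and 4 in KO PRA (7.96%), and none lower, with medians of 0.18 and 0.17 under TMM. With library totals the medians were -0.11 and -0.03, none was called higher, and 1 was called lower in WT. The shares of all genes were then 4.24% higher and 40.9% lower in WT, and 3.78% and 20.7% in KO. The cap-binding factor Eif4e was higher with PRA, at 34.5 against 28.1 CPM in WT (log2 fold change 0.29 ± 0.07, adjusted p = 0.00538, edgeR) and at 32.5 against 26.9 CPM in KO (0.27 ± 0.08, adjusted p = 0.0197), but at -0.01 and 0.06 on the log2 scale with library totals. Eif1, which guards start codon choice, had 0.36 ± 0.10 in WT (adjusted p = 0.0152) and 0.43 ± 0.11 in KO (adjusted p = 0.0108), and 0.07 and 0.22 with library totals.

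Of 55 ribosome biogenesis genes, 13 were called higher and 2 lower in WT PRA (9.74% and 12.3% of all genes), and 3 higher and 1 lower in KO PRA (7.96% and 8.38%), but with library totals 2 were higher and 14 lower in WT (4.24% and 40.9% of all genes) and 1 higher and 12 lower in KO (3.78% and 20.7%). The directions given for Rrs1, Gnl2, Dkc1 and Heatr1 were the same under both scalings. Rrs1, which brings the 5S particle with Rpl5 and Rpl11 into the pre-ribosome, was at 44.4 to 49.9 CPM in WT PRA and 24.4 to 27.8 in WT vehicle, with a log2 fold change of 0.87 ± 0.08 (adjusted p = 2.44e-07, edgeR). In KO it was 0.68 ± 0.09. Gnl2, a nucleolar GTPase of large subunit export, had 0.73 ± 0.08 in WT (adjusted p = 1.51e-06). Dkc1, the pseudouridine synthase of the H/ACA particles, was lower by edgeR, with -0.67 ± 0.10 in WT and -0.51 ± 0.11 in KO. With PRA, 4 of the 55 were called lower in KO than in WT and 0 higher, where 2.15% of all genes were called lower. They included Heatr1, needed for pre-rRNA transcription and processing, at 10.2 to 11.5 CPM in KO PRA and 16.8 to 21.5 in WT PRA (log2 difference -0.81 ± 0.11, adjusted p = 7.66e-05). Its interaction was -0.77 ± 0.14 (adjusted p = 0.0133, and 0.0739 with library totals).

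The snoRNA host genes and other ribosome-related lists were counted in the same way. Under TMM, 9.74% of all genes were called higher and 12.3% lower in WT, and 7.96% and 8.38% in KO. Among 8 snoRNA host genes, whose spliced transcripts also carry terminal pyrimidine tracts, Snhg3 was called higher in both genotypes (1.14 ± 0.15 in WT and 1.15 ± 0.16 in KO on the log2 scale) and Snhg5 in WT (0.53 ± 0.16). The Snhg3 calls were kept with library totals, whereas Snhg5 was then at 0.25 (adjusted p = 0.178, edgeR) and not called. Of 17 RNA polymerase I genes 1 was called higher in each genotype, Polr2l in WT and Ubtf in KO, and neither with library totals, when 7 were called lower in WT and 2 in KO (40.9% and 20.7% of all genes). None of 13 chaperones and importers of ribosomal proteins was called in WT under TMM, and 4 were called lower with library totals, against 40.9% of all genes. In KO 1 was called higher and 1 lower under TMM, and 3 lower with library totals (20.7% of all genes). The 78 mitochondrial ribosomal protein genes, which are encoded in the nucleus but serve a different ribosome, had medians of 0.04 in WT and 0.01 in KO, with 2 higher and 1 lower in WT and 1 and 1 in KO under TMM. With library totals the medians were -0.25 and -0.20, with 1 higher and 45 lower in WT (4.24% and 40.9% of all genes) and 0 higher and 22 lower in KO (3.78% and 20.7%). Mrpl38 accounted for the largest of these differences, at 139 to 209 CPM in WT PRA and 72.4 to 99.4 in WT vehicle. The 76 nuclear respiratory chain genes tested had medians of 0.20 and 0.18, similar in size to the canonical members, with 4 called higher in WT and 0 in KO under TMM, and of -0.09 and -0.03 with 0 called under library totals. Genes outside the family with a coding length no longer than that of the longest canonical member (1257 bases) numbered 5968 and had a median of 0.02 in WT.

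Regulators of ribosomal protein synthesis and of p53 were counted as well. Ddit4, an inhibitor of mTORC1 induced by stress, was at 178 to 255 CPM in WT PRA and 5.91 to 10.9 in WT vehicle (log2 fold change 4.54 ± 0.40, adjusted p = 1.05e-06, edgeR), and in KO it was 3.59 ± 0.39. Of 30 genes of mTORC1 and translation control, 5 were called higher and 2 lower in WT and 4 higher and 3 lower in KO under TMM (9.74% and 12.3% of all genes in WT, 7.96% and 8.38% in KO). With library totals 3 were higher and 17 lower in WT (4.24% and 40.9% of all genes) and 2 higher and 6 lower in KO (3.78% and 20.7%). Pdcd4, an inhibitor of the helicase Eif4a, was lower in KO PRA (-0.69 ± 0.10) and had an interaction of -0.65 ± 0.13 (adjusted p = 0.0251, and 0.154 with library totals). Of 13 genes on the axis from free ribosomal proteins to p53, 4 were called higher and none lower in each genotype under TMM. Of all genes, 9.74% were called higher and 12.3% lower in WT, and 7.96% and 8.38% in KO. With library totals 2 of the 13 were higher and 4 lower in WT (4.24% and 40.9% of all genes). In KO 4 were then higher and 2 lower (3.78% and 20.7%). Mdm2, the ligase bound by Rpl5 and Rpl11, had 0.64 ± 0.13 in WT (adjusted p = 0.00147, and 0.0734 with library totals) and 0.94 ± 0.14 in KO (adjusted p = 9.24e-05), and Cdkn1a had 3.50 ± 0.68 in WT (adjusted p = 0.00192).

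**Figure D5:**
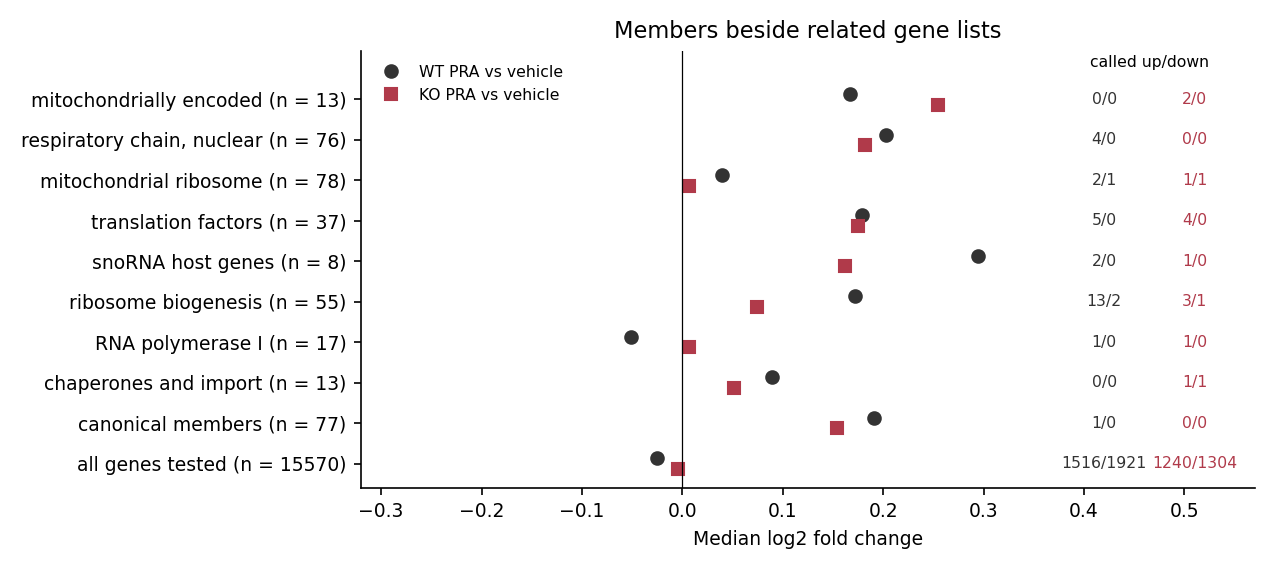
Median log2 fold change of PRA against vehicle (TMM scale) in WT (circles) and KO (squares) for the canonical members, related gene lists and all genes tested, with the numbers called higher and lower at the right. The canonical medians of 0.19 and 0.15 lie near those of translation factors (0.18 and 0.17) and nuclear respiratory chain genes (0.20 and 0.18), and with library totals the canonical medians are -0.10 and -0.06.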

How the data were processed

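Poly(A) RNA of liver was sequenced as read pairs in 19 libraries, per the labels' protocols. Raw gene counts were deposited by the authors in 1 table and again in 19 files with equal counts. HISAT2 2.2.1, SAMtools 1.13 and HTSeq 0.11.3 with genome build GRCm39 are listed in the submitters' processing notes. Neither strand setting nor annotation release is given in the sources used here, so overlapping and antisense genes cannot be told apart. Gene IDs were matched to symbols for 52083 of 55416 rows, which held 99.583% of counts. Groups came from the sample titles.

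The R 4.3.3 package edgeR 4.0.16 was applied to the counts. Genes passing filterByExpr (15570) were scaled by TMM and fitted by the quasi-likelihood method with a mean per group over all 19 libraries, and p-values were adjusted by Benjamini-Hochberg over all genes tested with a threshold of 0.05. CPM, except those of the "-ps" rows, were computed from the counts and TMM factors, and were summed over canonical members per subunit. Positions and lengths came from GENCODE and RefSeq tables of an older build than the counts; coding length stood in for protein length. The members and gene lists were chosen with earlier results of these data known. Named members were a fixed set of subunits (among them Rpsa, Rps6, Rplp0, Rpl5 and Rps19), all non-canonical members with their partners, the called members with the smallest p, and the 5 members of at least 10 CPM least like the median member; of other lists, up to 3 called genes by smallest p. No set test was run.

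Alternatives were other scalings, filters, DESeq2 1.42.0, a replicate block, fits of only the groups compared and leaving out each library; scaling by library totals alone and to the summed members were added after the data were seen. The edgeR script was first tested on simulated data with changes set in randomly drawn genes, far fewer than were called in the data. In WT PRA against vehicle, 0% of genes changed 1.2-fold were recovered, 38.8% at 1.5-fold and 57.6% at 2-fold. In KO these were 0%, 20.9% and 60.6%. The changed genes were drawn from all levels. In WT PRA against vehicle the median SE was 0.16 on the log2 scale for all genes and 0.12 for canonical members. These rates are therefore not those of the members. The canonical medians under TMM were small, with folds of 1.14 in WT and 1.11 in KO, and few calls do not show that members were unchanged.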

Additional observations from a re-analysis of the deposited data

Results flagged for a closer look

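Within groups of 4 libraries, the highest and the lowest value of each named member were compared with the nearest of the others. In 3 of 156 checks 1 library lay far from the rest by Dixon's 95% criterion, a rule that chance meets in about 1 in 20 groups. Rpl22l1 was at 20.8 CPM in WT vehicle replicate 3, where the other vehicle libraries were at 14.7 to 14.9. This library also held the highest value of all 77 canonical members among the WT vehicle libraries. Rpl36al was at 44.0 CPM in normal replicate 3, below 48.8 to 49.1 in the other normal libraries. Rpl6l was at 0.373 CPM in KO vehicle replicate 2, below 0.550 to 0.585 in the others of its group.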

How the results depend on the processing

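Whether scaling factors or library totals alone were used decided the sign of the PRA effect on this family. All 77 canonical members were positive against vehicle in both genotypes under TMM, RLE and upper quartile scaling, scaling from non-members, and DESeq2. The WT medians ran from 0.14 (upper quartile) to 0.21 (RLE and DESeq2), and the KO medians from 0.09 to 0.16. In WT PRA against normal, 57 were positive under upper quartile scaling, with a median of 0.03. With library totals alone, which leave the lower TMM factors of the PRA libraries out, the summed level of the large and small subunit differed by -0.083 and -0.077 in WT PRA against vehicle, by -0.053 and -0.049 in KO, and by -0.27 and -0.27 in WT PRA against normal, on the log2 scale. No canonical member was then called higher in either WT PRA comparison, and 61 were called lower against normal. Single members turned from positive under TMM to called lower against normal, Rps6 at -0.34, Rpl3 at -0.29, Rpl5 at -0.31, Rpl11 at -0.35, Rps19 at -0.33, Rpl36al at -0.28, Rps27l at -0.30, Rpl22 at -0.35, Rpl32 at -0.26, Rpl36a at -0.28, Rpl37 at -0.37, Rpl6 at -0.30, Rpl7 at -0.29, Rps12 at -0.36, Rps27 at -0.25, Rps3a1 at -0.37, Rps4x at -0.28 and Rpl24 at -0.26, and Rps27l did so against vehicle at -0.19. Rpl41, called higher under TMM, was at -0.078. The cause was not tested.

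The count of canonical members called higher in WT PRA against vehicle (1) was 0 under upper quartile scaling and under scaling to the summed members, 2 with DESeq2, and 0 to 23 when single libraries were left out. Against normal it (1) was 0 under both of those scalings, without a low-count filter and with any 1 library left out, and 4 when only those groups were fitted. Samples shared only a replicate number: correlations of same-numbered libraries' deviations ran from -0.22 to 0.19, so they were not treated as pairs, and the replicate block took both counts to 0. In the main fit 9.74% of all genes were called higher against vehicle and 13.5% against normal. Without WT vehicle replicate 3 it was 9.62% against vehicle. The shares of all genes in the other fits of this paragraph are not given, so their counts cannot be set against them. The other counts of canonical members called and the other summed levels in the 7 comparisons kept within 1.5 times or 1 SD, whereas the numbers of members higher in KO than in WT moved by more when single libraries were left out. With PRA, 43 were higher in KO, but 68 with library totals and 27 when only those groups were fitted (medians 0.08 and -0.02). After vehicle, 71 were, and 64 and 72 in the same 2 fits. The median SE of a canonical member, which depth and the spread between libraries set, limits what these groups can show.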
